A study of Mus musculus with 18 samples.

Results

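The comparison described here set 3 libraries of cells treated with TGFβ and SAM together against 3 libraries of untreated control cells, both taken by sample title, which are 6 of the 18 libraries of the series. The TGFβ+SAM cells received transforming growth factor β at 10 ng/mL with S-adenosyl methionine at 0.5 mM. The TGFβ cells received the cytokine alone and the SAM cells SAM alone, at the same doses, and the control cells received neither; each of these groups had 3 libraries and all were treated for 48 h. The other 6 libraries, of nicotinamide (NAM, 1 mM) alone and of TGFβ with NAM, entered the shared fit and are not described. All groups were im-TEC, a mouse line of tubular epithelial cells held in growth by SV40 large T antigen. Stocks were kept at the permissive temperature with interferon-γ, and before seeding all groups were moved to the restrictive temperature without interferon-γ. The medium of all groups held serum, insulin, transferrin, selenite, triiodothyronine, hydrocortisone and epidermal growth factor. The line is a single model, the labels do not state that replicates were separate cultures, and the p-values therefore measure the spread between libraries, which may be technical. The study concerns nicotinamide N-methyltransferase (Nnmt), and the comparison asks which genes changed by TGFβ stay changed, lie at control level or pass beyond it when SAM is present too.

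TGFβ is a cytokine that signals through receptor kinases and SMAD transcription factors. In tubular epithelium it is known for raising matrix, contractile and SMAD feedback genes and for lowering genes of the differentiated tubule. SAM is the methyl donor of most cellular methyltransferases, and Nnmt spends it to methylate nicotinamide. Interferon response genes encode antiviral sensors, effectors and GTPases, and are driven by STAT and IRF transcription factors that bind elements built from repeats of GAAA.

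Libraries were made by 3′ end sequencing, in which a read reports a transcript's end, so that levels are gene reads scaled to a common library size (CPM) without correction for length. The 6 libraries held 5744088 to 7088702 gene reads with 15236 to 16240 genes detected. TGFβ+SAM replicate 3 stood apart from the others of its group. Along the component that holds 12.4% of the variance it lay at −20.24, against −39.47 and −39.6 for replicates 1 and 2, and it had 15999 genes detected against 15236 and 15273. Between TGFβ+SAM libraries the chi-square per degree of freedom over genes was 11.28 and 10.04 for the pairs with replicate 3 and 5.817 for the other pair, and between control libraries 3.399 to 3.974. Library numbers run on through the groups without SAM and skip before those with SAM, so SAM treatment and a separate preparation cannot be told apart. The treatment tags of SAM replicates 2 and 3 conflict with their titles, which touches the SAM values. With both left out, where the lone SAM library is assumed to vary like the other groups, 148 genes were called higher and 318 lower in SAM than in control, against 676 and 915 with them. TGFβ+SAM against SAM then gave 1094 higher and 1164 lower. This alternative was chosen after the data were seen. Tubular markers Pax8, Pax2, Cdh16, Krt8 and Aqp1 were present, but Epcam had 0 reads in all 6 libraries, and the marker sum was 707 to 817 CPM in TGFβ+SAM and 1849 to 1923 CPM in control. Of 11 fibroblast markers, Lum, Pdpn, Thy1, Fap and Dpt had 0 reads, and the sum of the list was 67.4 to 78.2 CPM in TGFβ+SAM and 6.71 to 8.60 CPM in control, nearly all of it Col1a1 and Col1a2. Of 13 immune markers 6 had 0 reads, among them Cd3e, Cd79a and Adgre1, while Csf1r, Cd68, Cd14 and Fcer1g were detected. The sum, most of it Csf1r (67.6 to 81 CPM in TGFβ+SAM and 85.5 to 90.5 CPM in control), was 92.8 to 108 CPM in TGFβ+SAM and 121 to 125 CPM in control; Fcer1g had 47 reads in TGFβ+SAM and 11 in control. The endothelial genes Pecam1, Cdh5, Kdr and Vwf and the podocyte genes Nphs1 and Ptpro had 0 reads throughout, while Podxl and Synpo, of the podocyte list, were detected.

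TGFβ+SAM cells differed widely from control cells. Of 13469 genes tested, 1678 (12.5%) were higher and 1901 (14.1%) were lower at an adjusted p under 0.05 in edgeR's quasi-likelihood test, and 424 (3.15%) and 685 (5.09%) of them by at least 2-fold. In CPM, 19.8% of all genes had every TGFβ+SAM library above every control library and 21% had every one below. Without TGFβ+SAM replicate 3 the calls were 1614 higher and 1912 lower. Against TGFβ alone, a comparison that crosses the same skip in library numbers, TGFβ+SAM had 413 genes (3.07%) higher and 573 (4.25%) lower. Those counts were 251 and 379 without TGFβ+SAM replicate 1, 244 and 409 without replicate 2, and 439 and 629 without replicate 3. Against SAM alone, within the SAM libraries, 1910 genes (14.2%) were higher and 1914 (14.2%) lower.

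In TGFβ alone 9.7% of genes were called higher and 9.74% lower than in control, 345 (2.56%) and 434 (3.22%) of all by at least 2-fold. These 779 genes were placed by their level in TGFβ+SAM. A gene stayed changed if TGFβ+SAM was still called on the same side of control. It lay at control level if it was not called against control, its 95% interval was within 1.5-fold of control and it was called against TGFβ in the direction of control, and it passed control if it was called on the other side. Of the 345 raised genes 260 (75.4%) stayed raised, 13 (3.77%) lay at control level, 24 (6.96%) passed below it and 48 (13.9%) could not be settled. Of the 434 lowered genes 376 (86.6%) stayed lowered, 5 (1.15%) lay at control level, 0 passed above it and 53 (12.2%) could not be settled; 1 was above control at an unadjusted p under 0.05 and 0 in DESeq2. Without TGFβ+SAM replicate 1 or 2 the lowered genes not settled were 85 and 95. TGFβ and TGFβ+SAM are both set against the same control libraries, so these shares describe the classes and do not test them. The comparison with TGFβ uses no control library, but the TGFβ libraries helped choose the 779 genes. Genes at control level were called against TGFβ by the rule, so their p-values against TGFβ do not test the class.

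**Figure D1:**
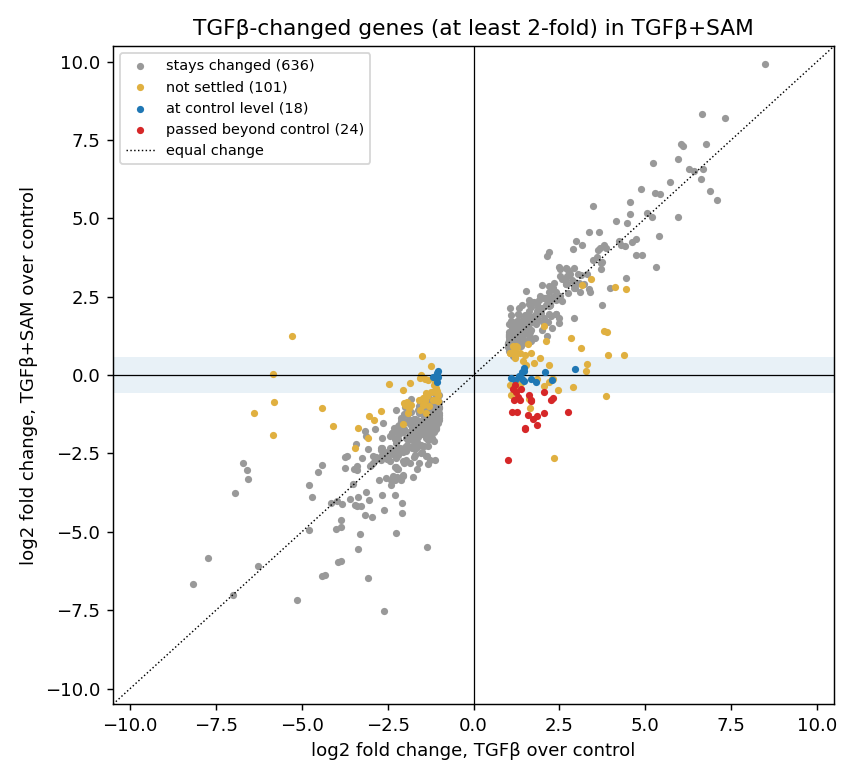
Each point is 1 of the 779 genes changed at least 2-fold by TGFβ, with its log2 fold change in TGFβ over control on the horizontal axis and in TGFβ+SAM over control on the vertical axis; the shaded band marks 1.5-fold around control. Most genes lie along the dotted line of equal change, and the 24 genes that passed control lie at lower right, below 0 in TGFβ+SAM.

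All changes are fitted log2 fold changes ± SE of the first-named group over the second, with n = 3 libraries each. The raised genes that stayed raised had a median log2 change of 1.91 in TGFβ+SAM over control and 1.78 in TGFβ over control. Acta2, the smooth muscle actin of myofibroblasts, had 1346, 1355 and 1260 CPM in TGFβ+SAM, 996, 1013 and 1091 CPM in TGFβ, 59.7, 48 and 43.4 CPM in SAM and 89.1, 89.8 and 72.3 CPM in control. The groups did not overlap, and TGFβ+SAM was the highest. Its log2 change over control was 3.98 ± 0.10 (SE; adjusted p = 1.4e-28, edgeR) and over TGFβ 0.35 ± 0.09 (adjusted p = 0.0093). Reads of Acta2, Acta1 and Actg2 may be shared, since the actins are near-identical, and Acta1 and Actg2 are given as uncertain: their log2 changes over control were 4.86 ± 0.16 and 5.12 ± 0.67. Ccn2, a matricellular growth factor, had 2575, 3190 and 2523 CPM in TGFβ+SAM, 2776, 2804 and 2651 CPM in TGFβ, 187, 239 and 217 CPM in SAM and 472, 490.4 and 472 CPM in control, a change of 2.53 ± 0.08 log2 units over control and 0.01 ± 0.08 over TGFβ. TGFβ+SAM and TGFβ overlapped. Tagln, an actin-bundling protein, was 2.24 ± 0.14 log2 units over control and 0.02 ± 0.13 over TGFβ.

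Among these 260 genes, 220 were not called against TGFβ, 30 were called further from control and 10 were called nearer to it. Pmepa1, an inhibitor of SMAD signalling, was further raised, with 1393, 1508 and 1159 CPM in TGFβ+SAM, 916, 983 and 1114 CPM in TGFβ and 197, 215 and 197 CPM in control. Every TGFβ+SAM library lay above every TGFβ library, and the change over TGFβ was 0.43 ± 0.09 log2 units (adjusted p = 6.7e-04). Inhba, which encodes a subunit of activin A, a ligand of the TGFβ family, had 511, 517 and 434 CPM in TGFβ+SAM, 334, 274 and 373 CPM in TGFβ and 101, 103 and 86 CPM in control. Its change over TGFβ was 0.58 ± 0.10 log2 units and over control 2.33 ± 0.11. Lrrc32 (GARP), which holds latent TGFβ at the cell surface, had 19, 31.8 and 26.2 CPM in TGFβ+SAM, 12.6, 11 and 13 CPM in TGFβ and 0.564, 0.572 and 0 CPM in control, with 8 reads in the control group. Its change over TGFβ was 1.07 ± 0.33 log2 units (adjusted p = 0.039). Kif26b, a kinesin of kidney development, had 43.6, 33.9 and 25.3 CPM in TGFβ+SAM, 5.9, 11.6 and 9.34 CPM in TGFβ and 1.69, 0.286 and 0.338 CPM in control. Its libraries did not overlap between any of these groups, and its change over TGFβ was 1.93 ± 0.40 log2 units (adjusted p = 0.0011). Pkp1, a desmosomal plakophilin, had 12.9, 28.9 and 16.6 CPM in TGFβ+SAM, 6.74, 5.18 and 9.58 CPM in TGFβ and 0 reads in control, and was at least 131-fold higher in TGFβ+SAM than the floor of 3 counts over the control group. Postn, a matricellular protein of fibrotic tissue, was 2.42 ± 0.10 log2 units over control and 0.31 ± 0.09 over TGFβ.

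Genes nearer to control were Stmn4, Il11, Col1a1, Tubb3, Ctla2a, Sorcs2, Timp1, Chd3, Cd44 and Tpm1. Col1a1, the α1 chain of type I collagen, had 46.4, 36 and 46.2 CPM in TGFβ+SAM, 111, 106 and 111 CPM in TGFβ, 0.911, 1.88 and 1.55 CPM in SAM and 5.21, 3 and 7.09 CPM in control. TGFβ+SAM lay between TGFβ and control without overlapping either. Its change was −1.35 ± 0.16 log2 units against TGFβ (adjusted p = 3.5e-08) and 3.09 ± 0.21 against control (adjusted p = 9.4e-16). Col1a2, the partner chain, was 3.41 ± 0.31 log2 units over control and 0.49 ± 0.25 against TGFβ, where it was not called (adjusted p = 0.25). Fn1, fibronectin, had 1058, 1075 and 984 CPM in TGFβ+SAM, 1127, 1166 and 1144 CPM in TGFβ and 471, 479 and 503 CPM in control, and did not pass the test against TGFβ either.

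By list, to be read beside the 12.5% of all genes called higher and 14.1% called lower than control, 19 of 30 tested collagen and matrix genes were higher in TGFβ+SAM than in control and 8 were lower, with a median log2 change of 0.94, against 0.00 over all genes tested. Of 16 TGFβ targets and SMAD feedback genes 9 were higher and 1 lower (median 0.64), of 29 contractile and mesenchymal genes 15 were higher and 4 lower (median 0.52), and of 18 targets of the transcriptional coactivator YAP 10 were higher and 2 lower (median 0.39). The summed fibroblast markers moved with these lists, through Col1a1, Col1a2 and Pdgfrb, and their part in the result was not tested. Matrix proteases and inhibitors split, with 8 of 20 higher and 5 lower. Timp3, a matrix-bound metalloproteinase inhibitor, had 1488, 1624 and 1244 CPM in TGFβ+SAM and 595, 621 and 619 CPM in control, whereas Plat, tissue plasminogen activator, was −2.49 ± 0.18 log2 units against control. Adamts4, an aggrecanase, had 94.8, 101 and 86.3 CPM in TGFβ+SAM and 31.6, 35.9 and 37.3 CPM in control.

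**Figure D2:**
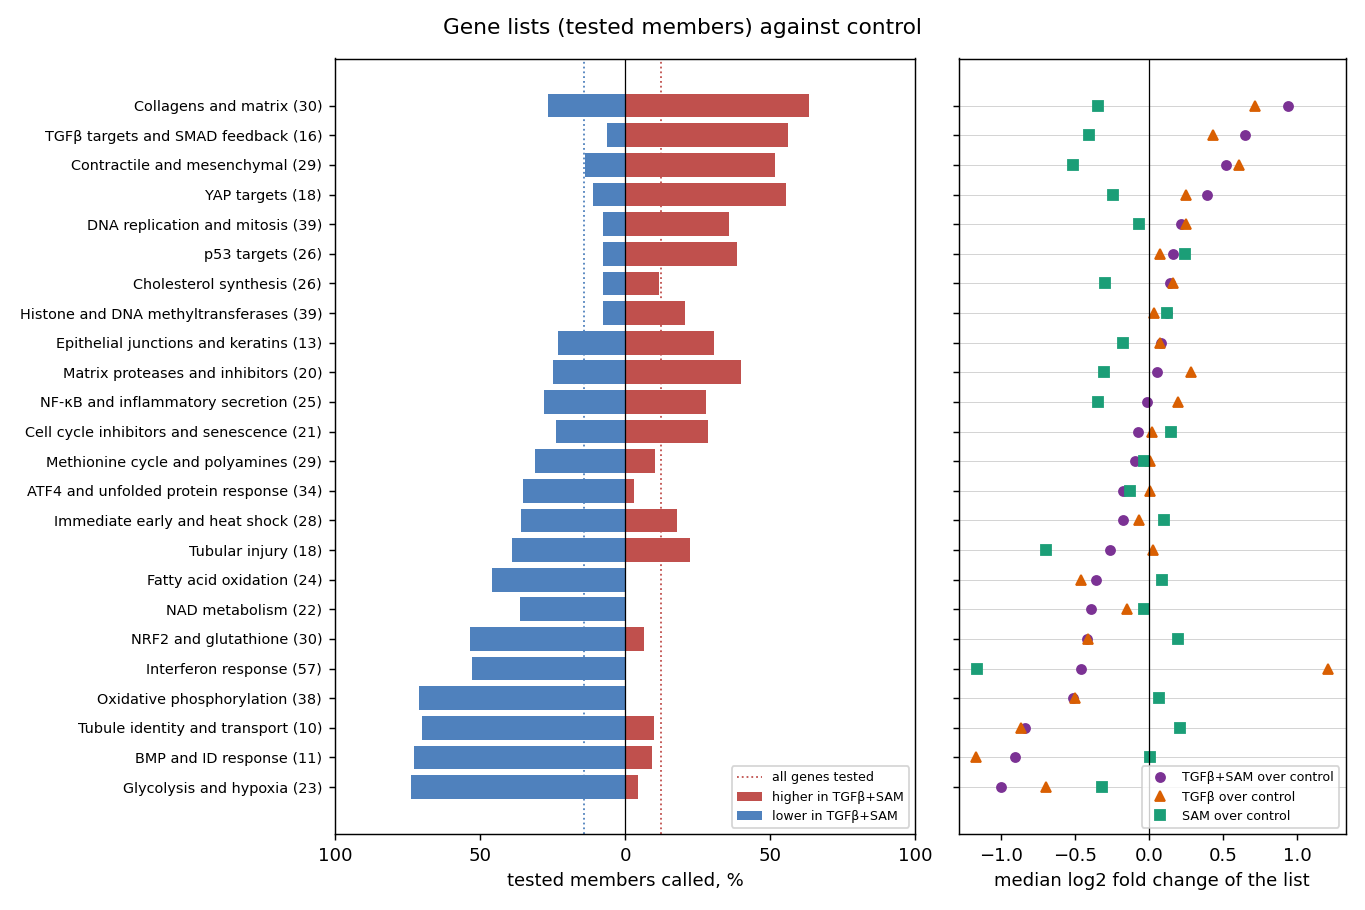
Left, the share of each list's tested members (number in parentheses) called higher or lower in TGFβ+SAM than in control, with dotted lines for all genes tested; right, the list's median log2 fold change over control in TGFβ+SAM, TGFβ and SAM. For interferon response genes the TGFβ median (1.21) is above 0 and the TGFβ+SAM (−0.46) and SAM (−1.16) medians are below it.

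Genes of the differentiated tubule were mostly lower than in control; in these bulk libraries fewer cells of a type and less RNA per cell cannot be told apart. Aqp1, the water channel of the proximal tubule, had 52.1, 51.1 and 69.2 CPM in TGFβ+SAM, 112, 123 and 81.8 CPM in TGFβ, 1237, 1311 and 1252 CPM in SAM and 986, 1023 and 1084 CPM in control. TGFβ+SAM was below TGFβ and far below control, with changes of −0.89 ± 0.11 log2 units (adjusted p = 2.9e-07) and −4.16 ± 0.11 (adjusted p = 1.2e-27). Atp1b1, a subunit of the sodium pump, was −2.88 ± 0.08 log2 units against control and did not pass against TGFβ. Of 29 listed tubule identity and transport genes only 10 passed the count filter and were tested. Of these 10, 7 were lower and 1, the cadherin Cdh6, was higher in TGFβ+SAM than in control (median −0.84). Cdh16, the kidney-specific cadherin, was −1.64 ± 0.11 log2 units against control, and of 13 tested epithelial junction and keratin genes 4 were higher and 3 lower. The lowered genes that stayed lowered had a median of −1.68 in TGFβ+SAM and −1.55 in TGFβ, both over control.

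Among those 376 lowered genes, 330 were not called against TGFβ, 29 were called still lower and 17 were called nearer to control. C3, the central complement component, fell to 0, 2.45 and 1.24 CPM in TGFβ+SAM, against 7.08, 7.07 and 2.7 CPM in TGFβ, 22, 12.3 and 20.9 CPM in SAM and 56.5, 59.6 and 64 CPM in control. No TGFβ+SAM library overlapped another group, and the change was −2.20 ± 0.47 log2 units against TGFβ (adjusted p = 5.2e-04). Spib, an ETS transcription factor known from lymphoid cells, had 0, 0.652 and 0 CPM in TGFβ+SAM, 3.54, 3.3 and 6.14 CPM in TGFβ and 10.4, 12.4 and 9.46 CPM in control, −4.15 ± 0.87 log2 units against TGFβ on 4 reads in the TGFβ+SAM group. Vcam1, an adhesion molecule of injured tubules, had 47.3, 41.8 and 50.9 CPM in TGFβ+SAM, 67.6, 79.3 and 64.1 CPM in TGFβ and 149, 153 and 155 CPM in control. Inmt, a methyltransferase that uses SAM, had 7 reads in the TGFβ+SAM group, 2 in TGFβ, 1368 in SAM and 823 in control, and could not be ranked between TGFβ+SAM and TGFβ. Inhibitors of DNA binding, which answer BMP signals, were low in both: Id2 had 105, 125 and 102 CPM in TGFβ+SAM, 108, 98.4 and 94.6 CPM in TGFβ, 749.9, 725 and 853 CPM in SAM and 469, 451 and 483 CPM in control. Id4 was nearer to control, with 8.68, 5.38 and 5.43 CPM in TGFβ+SAM, 4.04, 2.83 and 1.97 CPM in TGFβ and 42.8, 34 and 40.2 CPM in control, a change of 1.08 ± 0.30 log2 units over TGFβ (adjusted p = 0.016). In the BMP and ID list 8 of 11 were lower and 1 higher than control (median −0.91).

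Lowered genes that lay at control level were Foxc1, Eya2, Mylip, Cd68 and H2-Eb1. Foxc1, a forkhead factor of kidney development, had 76.7, 90.5 and 79 CPM in TGFβ+SAM, 32.5, 43.8 and 38.6 CPM in TGFβ, 135, 143 and 137 CPM in SAM and 83.2, 87.5 and 88.2 CPM in control. TGFβ+SAM overlapped control and lay above TGFβ, and SAM alone was the highest. H2-Eb1, a class II antigen-presentation chain, had 129, 141 and 144 CPM in TGFβ+SAM, 66.6, 61.6 and 57.7 CPM in TGFβ, 278, 293 and 302 CPM in SAM and 135, 113 and 131 CPM in control. Eya2, a transcriptional coactivator, was −0.23 ± 0.11 log2 units against control (adjusted p = 0.13) and 0.84 ± 0.12 against TGFβ (adjusted p = 1.2e-06).

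Interferon response genes made up most of the raised genes at or below control level, with 24 of 37 in the interferon list. Of 60 listed genes 57 were tested, among 13469 genes in all, and 33 were among the 345 raised genes. In TGFβ+SAM 0 were called higher and 30 lower than in control (median log2 change −0.46), in TGFβ 47 higher and 0 lower (median 1.21), and in SAM 1 higher and 45 lower (median −1.16, where 5.02% and 6.79% of all genes were called). The 0 higher in TGFβ+SAM was also 0 at an unadjusted p under 0.05 and in DESeq2, and the 0 lower in TGFβ was 1 in both. Against TGFβ, 55 of 57 were called lower in TGFβ+SAM and 0 higher (median −1.77), where 4.25% and 3.07% of all genes were. That 0 higher was also 0 at an unadjusted p under 0.05 and in DESeq2. All 57 had every TGFβ+SAM library below every TGFβ library, which 11.9% of all genes did. Against SAM, 33 were higher, 9 lower and 15 not called, where 14.2% of all genes were called each way. Without SAM replicates 2 and 3 the list had 33 lower in SAM than in control, and 25 higher and 7 lower in TGFβ+SAM than in SAM. The list was chosen with this response known, so its counts describe it. Its mean log2(CPM + 1) per library was 4.83, 4.81 and 5.09 in TGFβ+SAM, 6.71, 6.70 and 6.64 in TGFβ, 4.45, 4.48 and 4.28 in SAM, and 5.63, 5.43 and 5.50 in control. TGFβ+SAM replicate 3, the library that stood apart, was the highest of its group and still below every control library. Without it 32 of the list were lower than control, and without control replicate 1 that number was 25. The summed immune markers, mostly Csf1r, were lower in TGFβ+SAM than in control, as given above, with Cd3e, Cd79a and Adgre1 at 0. Over the 4 tested markers the sum was 92.9 to 108 CPM in TGFβ+SAM and 121 to 125 CPM in control. It was 68.3 to 89.4 CPM in TGFβ, where the interferon list was highest, and 133 to 149 CPM in SAM, where the list was lowest. The part of the immune markers in these levels was not tested.

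**Figure D3:**
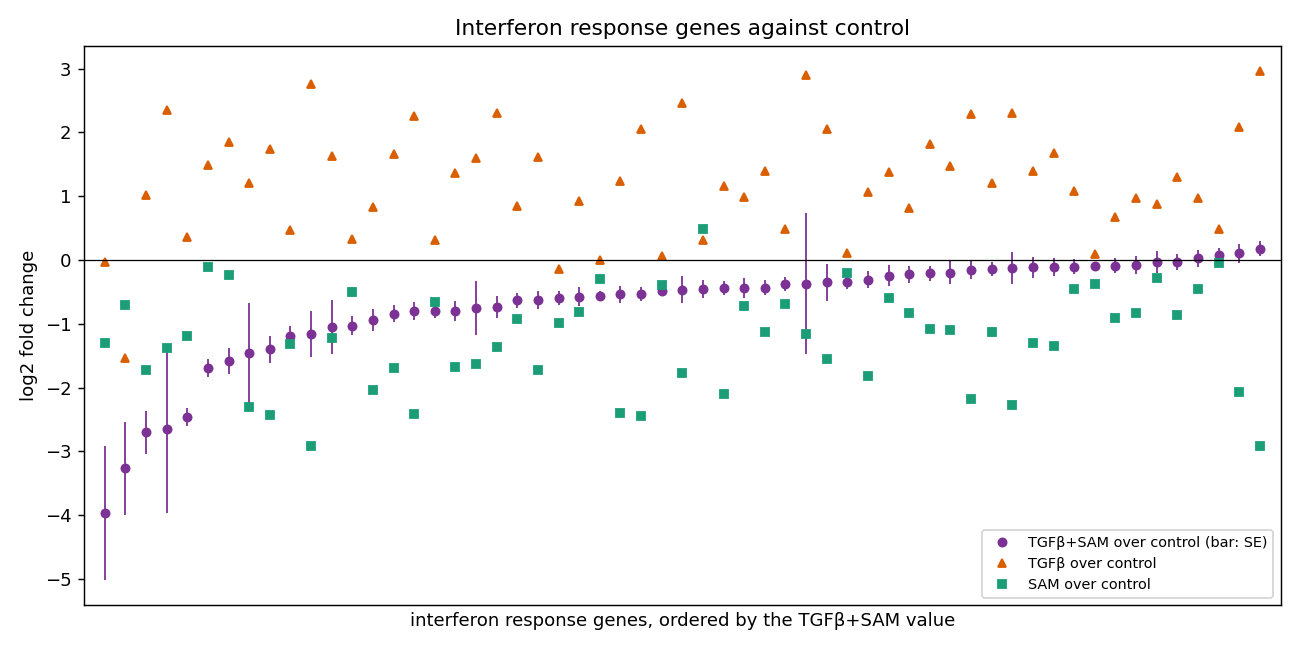
Log2 fold change over control of the 57 tested interferon response genes in TGFβ+SAM (with SE), TGFβ and SAM, ordered by the TGFβ+SAM value. The TGFβ triangles lie above the TGFβ+SAM circles for all 57 genes, and 30 circles were called below 0.

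Promoters of these genes are shown because the elements that STAT and IRF factors bind are known to mark interferon response genes. Windows of 300 bases, from 250 before to 50 after the RefSeq start (mouse build GRCm38.p6), were searched on both strands for GAAA, any 2 bases and GAAA, with overlapping matches kept and a gene counted if any of its windows held one. The motif was in 24 of the 44 tested interferon genes with a window (54.5%), in 6 of 11 at control level (54.5%), in 13 of 20 that passed control (65%) and in 8 of 165 raised genes that stayed raised (4.85%), against 338 of 9296 tested genes (3.64%) and 1079 of 27025 genes with a window (3.99%). A match is a description of the letters. Gbp3 has a second start whose window held none. Capitals mark the matches on either strand, in Isg15 and Gbp3, which lay at control level, and in Ifit3 and Oas3, which passed it. Each is written 5′ to 3′ on the gene's own strand: Isg15 at chr4:156200769-156201068 (minus), Gbp3 at chr3:142559794-142560093 (plus), Ifit3 at chr19:34583279-34583578 (plus) and Oas3 at chr5:120777610-120777909 (minus).
Isg15: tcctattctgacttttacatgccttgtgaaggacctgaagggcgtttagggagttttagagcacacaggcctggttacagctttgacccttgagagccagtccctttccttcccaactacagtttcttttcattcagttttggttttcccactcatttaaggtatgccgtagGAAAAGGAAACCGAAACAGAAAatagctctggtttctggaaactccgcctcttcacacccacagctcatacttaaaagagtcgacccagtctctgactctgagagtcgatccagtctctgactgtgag
Gbp3: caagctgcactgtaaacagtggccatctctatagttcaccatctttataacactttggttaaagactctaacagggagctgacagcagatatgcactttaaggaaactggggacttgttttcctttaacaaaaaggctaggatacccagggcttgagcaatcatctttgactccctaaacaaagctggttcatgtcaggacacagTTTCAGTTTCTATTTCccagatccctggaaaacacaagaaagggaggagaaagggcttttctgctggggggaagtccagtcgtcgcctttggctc
Ifit3: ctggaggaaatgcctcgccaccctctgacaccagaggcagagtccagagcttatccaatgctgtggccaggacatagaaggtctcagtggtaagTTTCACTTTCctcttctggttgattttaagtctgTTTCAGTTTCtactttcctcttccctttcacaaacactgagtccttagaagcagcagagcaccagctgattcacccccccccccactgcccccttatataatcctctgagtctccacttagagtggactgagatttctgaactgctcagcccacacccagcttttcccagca
Oas3: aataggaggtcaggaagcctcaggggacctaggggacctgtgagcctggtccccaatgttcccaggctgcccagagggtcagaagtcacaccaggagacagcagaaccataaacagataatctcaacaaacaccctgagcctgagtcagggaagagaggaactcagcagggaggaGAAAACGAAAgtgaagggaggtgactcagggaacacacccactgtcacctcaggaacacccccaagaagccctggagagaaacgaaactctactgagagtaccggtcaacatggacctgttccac
The windows of Ifi44 and Irf7, described next, held no match.

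The 13 raised genes at control level were Parp14, Ifih1, Isg15, Herc6, Xaf1, Gbp7, Igtp, Parp9, Ifi211, Gbp3, Helz2, Ifi44 and Dtx3l. Ifi44, an interferon-induced protein, had 79.7, 79 and 86.4 CPM in TGFβ+SAM, 549, 588 and 545 CPM in TGFβ, 8.96, 13.3 and 6.21 CPM in SAM and 80.5, 66.5 and 69.4 CPM in control. TGFβ+SAM overlapped control, TGFβ was far above both and SAM far below. The change was −2.78 ± 0.11 log2 units against TGFβ (adjusted p = 1.1e-21) and 0.18 ± 0.11 against control (adjusted p = 0.25). Isg15, a ubiquitin-like modifier, had 198, 197 and 266 CPM in TGFβ+SAM, 1108, 1212 and 1303 CPM in TGFβ, 46.6, 71.3 and 44.5 CPM in SAM and 256, 223 and 259 CPM in control. TGFβ+SAM replicate 3 lay above the control libraries and replicates 1 and 2 below them, and the change against control was −0.16 ± 0.14 log2 units (adjusted p = 0.46). Gbp3, a guanylate-binding GTPase with close paralogs that may share its reads, had 33.5, 28.9 and 36.2 CPM in TGFβ+SAM, 128, 117 and 142 CPM in TGFβ, 7.29, 5.63 and 8.97 CPM in SAM and 31.9, 26.2 and 33.6 CPM in control. Parp14, an ADP-ribosyltransferase, was −2.04 ± 0.11 log2 units against TGFβ and −0.21 ± 0.11 against control, and Ifih1, the RNA sensor MDA5, was −1.68 ± 0.17 and −0.20 ± 0.18. Of the 27 listed interferon genes not called against control, 17 had intervals within 1.5-fold of it.

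Raised genes that passed below control included Oas3, Ifi203, Ifit3, Ifit3b, Irf7, Phf11d, Ddx60, Trim30d, Rnf213, Slfn2, Zbp1, Trim30a, Ifit1, Sp100, Gbp2, Gm20559, Rsad2, Tor3a, Oasl2, Apol9b, Cxcl10, Rtp4 and Ifitm3. The rule chose them by their call against control. In 22 of the 24 every TGFβ+SAM library lay below every control library, as in 21% of all genes, and nothing is read from that count. Against SAM alone, 3 of the 24 (Oas3, Ifit3 and Ifit3b) were called lower, 13 higher and 8 were not called. Of all genes 14.2% were called each way there. In SAM against control 21 of the 24 were called lower, where 6.79% of all genes were. That comparison uses the control libraries by which the 24 were chosen, so the count describes them and does not test them. Ifit3, an antiviral RNA-response protein, had 15.2, 16.5 and 27.8 CPM in TGFβ+SAM, 159, 193 and 192 CPM in TGFβ, 64.2, 60.5 and 54.5 CPM in SAM and 64.8, 63.1 and 65.9 CPM in control. TGFβ+SAM was below each of the others, while SAM and control overlapped. The change was −1.69 ± 0.15 log2 units against control (adjusted p = 1.9e-12) and −0.11 ± 0.13 in SAM against control (adjusted p = 0.66). Its near-copy Ifit3b, with which it may share reads, was −1.59 ± 0.20 log2 units against control. Oas3, an oligoadenylate synthetase with paralogs, had 0.886, 1.79 and 3.57 CPM in TGFβ+SAM, 29.7, 26.9 and 27.8 CPM in TGFβ, 2.89, 5.16 and 4.66 CPM in SAM and 12.7, 15.9 and 13.2 CPM in control, −2.70 ± 0.33 log2 units against control (adjusted p = 6.4e-09). Irf7, the transcription factor that amplifies interferon output, had 8.86, 10.4 and 11.8 CPM in TGFβ+SAM, 91.3, 92.9 and 91.4 CPM in TGFβ, 3.49, 7.5 and 4.31 CPM in SAM and 36.9, 18.7 and 26.7 CPM in control. It lay below control and TGFβ and above SAM in every library. Ifi203, a DNA-sensor family member, was −1.71 ± 0.25 log2 units and Ddx60, a helicase of RNA sensing, −1.27 ± 0.24 against control. Trim30d passed at an adjusted p of 0.043, but not in DESeq2 (0.216) or without any 1 of the 6 libraries other than TGFβ+SAM replicate 3 (0.0508 to 0.253). Phf11d passed at 0.0055, but not without TGFβ+SAM replicate 2 (adjusted p = 0.0702) or control replicate 1 (adjusted p = 0.0819).

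Their median log2 difference from the control mean was −0.87, −1.07 and −0.589 in TGFβ+SAM replicates 1, 2 and 3. Without replicate 3, 28 genes passed control and 9 lay at control level. Without control replicate 1, 19 genes passed control. Outside these classes, Iigp1, an immunity-related GTPase, had 16.7, 18.1 and 27.5 CPM in TGFβ+SAM, 153, 161 and 130.2 CPM in TGFβ, 49.2, 44.5 and 57.8 CPM in SAM and 123, 110 and 112 CPM in control, −2.46 ± 0.14 log2 units against control although TGFβ alone moved it by 0.37 ± 0.12. Psmb8, an immunoproteasome subunit, had 85.8, 72.1 and 98.7 CPM in TGFβ+SAM, 195, 172 and 189.7 CPM in TGFβ, 94.6, 100 and 89.3 CPM in SAM and 149, 150.1 and 149.8 CPM in control. In both genes every TGFβ+SAM library lay below every control library.

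**Figure D4:**
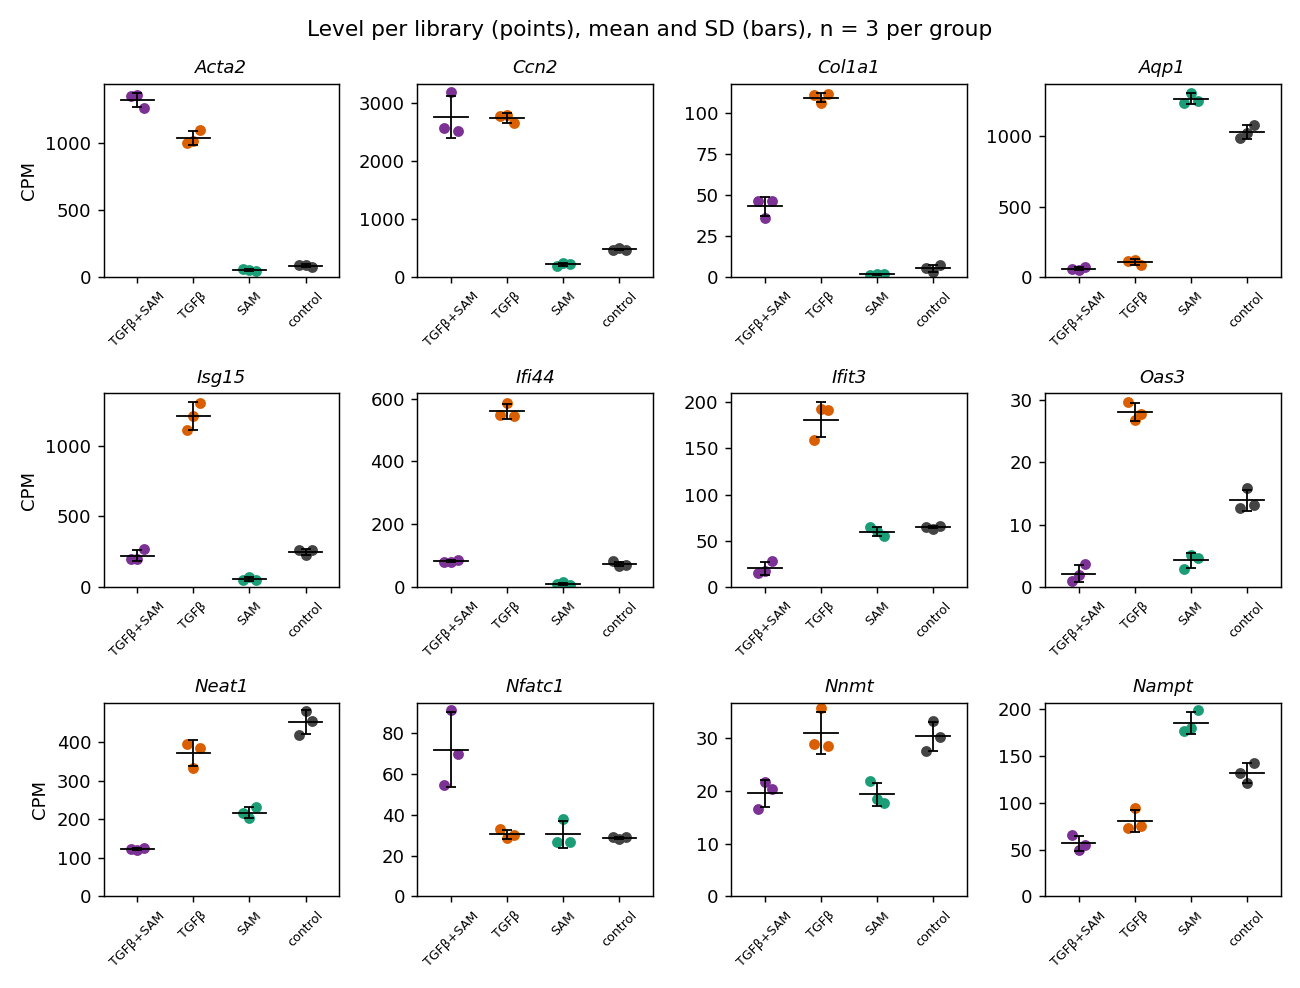
CPM of 12 genes per library (points) with mean and SD (bars, n = 3) in TGFβ+SAM, TGFβ, SAM and control, each axis starting at 0. Acta2 and Ccn2 stay high in TGFβ+SAM, Ifi44 and Isg15 lie at control level, Ifit3 and Oas3 lie below it, and Neat1 and Nfatc1 differ from control in TGFβ+SAM with little change in TGFβ.

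A further set of genes moved in TGFβ+SAM with at most a small change in TGFβ, and is named here as outside the TGFβ response. They were called against both control and TGFβ in the same direction, with the 95% interval of TGFβ against control within 1.5-fold. A call in TGFβ against control did not exclude a gene. By this rule there were 159 higher and 159 lower among the 13469 genes tested. These counts moved to 184 and 184 without TGFβ+SAM replicate 3, 93 and 101 without replicate 1, and 86 and 104 without replicate 2. With all libraries, 84 of the higher genes were also called higher in SAM than in control, where 5.02% of all genes were. Of the lower genes 87 were also called lower in SAM, where 6.79% of all genes were. The same control libraries served to choose these genes, so both counts describe them and do not test them. Neat1, the long noncoding RNA that scaffolds paraspeckles, had 123, 119.6 and 125 CPM in TGFβ+SAM, 395, 332 and 385 CPM in TGFβ, 215, 203 and 231 CPM in SAM and 418, 479 and 455 CPM in control. TGFβ+SAM was below every other library, −1.88 ± 0.09 log2 units against control (adjusted p = 1.1e-19). The TGFβ libraries of Neat1 also all lay below the control libraries. Nfatc1, a calcineurin-regulated transcription factor, had 54.6, 91.2 and 69.8 CPM in TGFβ+SAM, 32.9, 28.4 and 29.97 CPM in TGFβ, 26.4, 38.1 and 26.7 CPM in SAM and 29.2, 27.9 and 28.9 CPM in control. It was higher in TGFβ+SAM than in each other group, by 1.33 ± 0.17 log2 units over control (adjusted p = 4.4e-08). Cd274, the checkpoint ligand PD-L1, had 26.4, 10.4 and 23.6 CPM in TGFβ+SAM, 48.9, 41.8 and 63.4 CPM in TGFβ, 38.9, 44.1 and 42.4 CPM in SAM and 49.2, 53 and 49 CPM in control, −1.33 ± 0.19 log2 units against control. S100a4, a calcium-binding protein of motile cells, had 143, 144 and 151 CPM in TGFβ+SAM, 341, 315 and 333 CPM in TGFβ, 113, 149.7 and 141 CPM in SAM and 338, 363 and 359 CPM in control, so TGFβ+SAM overlapped SAM. The adhesion receptor Adgrg1 was −1.11 ± 0.10 log2 units against control in TGFβ+SAM and −0.41 ± 0.10 in SAM. Among the higher genes, Mrpl28, a mitochondrial ribosomal protein, and Pmm1, a phosphomannomutase, were 1.05 ± 0.14 log2 units and 0.98 ± 0.11 over control and 0.75 ± 0.14 and 0.87 ± 0.11 in SAM.

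Nnmt, the enzyme the study is about, had 16.7, 21.7 and 20.3 CPM in TGFβ+SAM, 29, 35.7 and 28.5 CPM in TGFβ, 21.9, 18.4 and 17.8 CPM in SAM and 27.6, 33.2 and 30.2 CPM in control. TGFβ+SAM did not overlap TGFβ or control and overlapped SAM. It was −0.63 ± 0.17 log2 units against control (adjusted p = 0.0038) and −0.67 ± 0.17 against TGFβ (adjusted p = 0.0091), while TGFβ alone was 0.04 ± 0.16 against control (adjusted p = 0.92). In the NAD metabolism list 8 of 22 tested genes were lower than control and 0 higher (median −0.40), while 2 were higher at an unadjusted p under 0.05 and 1 in DESeq2. Nampt, the rate-limiting enzyme of NAD salvage, had 65, 49.9 and 54.5 CPM in TGFβ+SAM, 72.5, 94.4 and 75.4 CPM in TGFβ, 176, 179.6 and 198 CPM in SAM and 132, 121 and 142 CPM in control. The groups did not overlap, with TGFβ+SAM the lowest and SAM the highest. Bst1, an ectoenzyme that consumes NAD, was −1.26 ± 0.09 log2 units against control and −0.58 ± 0.09 against TGFβ (adjusted p = 7.6e-06).

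The methionine cycle and polyamine list split, with 3 of 29 higher and 9 lower. Mat2a, which makes SAM from methionine, had 204, 170.1 and 163 CPM in TGFβ+SAM, 267, 278 and 271 CPM in TGFβ, 185, 174 and 179 CPM in SAM and 253, 266 and 269 CPM in control. The SAM-treated groups overlapped each other and lay below TGFβ and control, −0.55 ± 0.09 log2 units for TGFβ+SAM against control (adjusted p = 3.4e-06). Mtr, methionine synthase, went the other way, with 83.8, 85 and 61.6 CPM in TGFβ+SAM, 40.4, 52 and 60.7 CPM in TGFβ, 53.2, 48.9 and 54.5 CPM in SAM and 33.5, 30.6 and 31.8 CPM in control. Odc1, the entry enzyme of polyamine synthesis, was −1.36 ± 0.17 log2 units against control and not called against TGFβ (adjusted p = 0.22). Of 39 histone and DNA methyltransferase genes 8 were higher and 3 lower, where 12.5% of all genes were higher and 14.1% lower; Smyd3, a lysine methyltransferase, was 1.48 ± 0.18 log2 units over control.

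Most of the oxidative phosphorylation and glycolysis genes were lower than in control. Of 38 oxidative phosphorylation genes 27 were lower and 0 higher than control (median −0.52; 0 higher unadjusted and in DESeq2). Against TGFβ 0 of them were called in edgeR, 5 being higher and 2 lower at an unadjusted p below 0.05 and 1 higher in DESeq2. Of 24 fatty acid oxidation genes 11 were lower (median −0.36); Ppargc1a, the coactivator of mitochondrial biogenesis, had 21.1, 22.8 and 36.3 CPM in TGFβ+SAM, 21.4, 20.4 and 22.4 CPM in TGFβ, 293, 289 and 329 CPM in SAM and 153, 156 and 178 CPM in control. Its TGFβ+SAM replicate 3 was the highest of the group. Of 23 glycolysis and hypoxia genes 17 were lower and 1 higher than control (median −1.004). Against TGFβ 7 were lower and 1 higher, where 4.25% and 3.07% of all genes were. Aldoa, the glycolytic aldolase, had 212, 184 and 199.6 CPM in TGFβ+SAM, 262, 291 and 230.2 CPM in TGFβ, 570.3, 549.8 and 554 CPM in SAM and 779.9, 636 and 673 CPM in control, −0.40 ± 0.09 log2 units against TGFβ (adjusted p = 0.0029). Eno1, an enolase whose reads may be shared with copies, was −0.85 ± 0.13 log2 units against TGFβ, and Ldha, lactate dehydrogenase A, −0.33 ± 0.10. In the NRF2 and glutathione list 16 of 30 were lower and 2 higher; Gstm1, a glutathione transferase with close paralogs, had 49.3, 33.4 and 44.4 CPM in TGFβ+SAM, 64.2, 50.9 and 46.2 CPM in TGFβ and 665, 663 and 624 CPM in control. Of 26 cholesterol synthesis genes 3 were higher and 2 lower (median 0.14), a share no larger than the 12.5% and 14.1% of all genes.

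Growth and stress genes went both ways. Of 39 DNA replication and mitosis genes 14 were higher and 3 lower (median 0.21), though Ccnd1, cyclin D1, had 173, 136 and 133 CPM in TGFβ+SAM, 144, 135 and 139.6 CPM in TGFβ and 699.9, 647 and 649 CPM in control. The 14 became 9 without TGFβ+SAM replicate 3 and 8 without control replicate 1. Of 26 p53 targets 10 were higher and 2 lower than control (median 0.16). Against TGFβ 7 were higher, where 3.07% of all genes were. In SAM 10 were higher and 0 lower than control (median 0.24), where 5.02% and 6.79% of all genes were. Mdm2, the p53 ubiquitin ligase, had 808, 771 and 770.4 CPM in TGFβ+SAM, 585, 544 and 581 CPM in TGFβ, 629.9, 643 and 589 CPM in SAM and 418, 482 and 429.5 CPM in control. Each TGFβ+SAM library was above every library of the other groups, and the death receptor Fas was 1.58 ± 0.19 log2 units over control and 0.79 ± 0.18 over TGFβ (adjusted p = 0.0043). Cell cycle inhibitor and senescence genes split, with 6 of 21 higher and 5 lower (3 without TGFβ+SAM replicate 2); Cdkn2b, an inhibitor of cyclin D kinases, was 0.64 ± 0.11 log2 units over control. Of 34 ATF4 and unfolded protein response genes 12 were lower and 1 higher, and of 28 immediate early and heat shock genes 10 were lower and 5 higher. Atf3, a stress-induced transcription factor, had 5.85, 4.24 and 3.57 CPM in TGFβ+SAM, 10.8, 17.6 and 17 CPM in TGFβ, 36.1, 31.6 and 29.3 CPM in SAM and 23.5, 27.2 and 24.5 CPM in control. In the NF-κB and inflammatory secretion list 7 of 25 were higher and 7 lower: Ptgs2, cyclooxygenase-2, was 4.58 ± 0.52 log2 units and Ccl2, a monocyte chemokine, −1.77 ± 0.15 against control. Of 18 tubular injury genes 4 were higher and 7 lower; Clu, clusterin, was 1.04 ± 0.09 log2 units and Spp1, osteopontin, −1.34 ± 0.10 against control.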

How the data were processed

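The authors deposited 1 table of raw counts, reads per gene and library from QuantSeq 3′ mRNA libraries of im-TEC. The tools used by the authors are those that the submitters' processing notes name as STAR and HTSeq, without versions; the strand setting was not stated. Those notes give the build as GRCh38, yet all 55487 gene rows have mouse Ensembl identifiers, which leaves build and annotation release unsettled; 55141 identifiers were matched to symbols in GENCODE M21. The 5 special rows were left out; in the 6 libraries, reads outside genes made up 25.93% to 26.95% and ambiguous reads 0.6361% to 0.6754%.

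Counts of all 18 libraries were fitted together by quasi-likelihood, each group having its own term, in edgeR 4.0.16 (R 4.3.3), with TMM scaling and filterByExpr at a minimum count of 10, which kept 13469 genes; tests were two-sided with Benjamini-Hochberg adjustment at 0.05 within each comparison. The median SE of the log2 change between TGFβ+SAM and control was 0.197. Fold changes are fitted log2 values ± SE with n = 3 libraries a group; intervals cover the spread between libraries. Reads are not independent molecules, and the floor of 3 counts covers counting error only. An exact permutation of 3 against 3 cannot give a p below 0.1. DESeq2 1.42.0, other scalings, filters, margins, library subsets and a replicate block were alternatives. Deviations of same-numbered TGFβ+SAM and control libraries correlated at 0.00541, −0.00206 and 0.00205, so the numbers do not pair them. The calculation was tested on simulated data.

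Members and lists were chosen with earlier results of these data known. Named genes are Nnmt, Acta2, Col1a1, the 10 highest and 10 lowest called changes with a mean of at least 5 CPM and no overlap, up to 8 of each class, 5 each way outside the TGFβ response, and up to 4 of each list; genes given only as class members were named after their values were seen. Some genes that the rule names are not reported here. The listed symbols Rigi and Ca9 matched no gene. Marker sums are in CPM of gene reads.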

Additional observations from a re-analysis of the deposited data

How the results depend on the processing

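Of 139 named genes 136 kept their direction and their side of the threshold under every alternative that gave them a value for TGFβ+SAM against control, and none reversed; Pdgfrb had no value with only 6 libraries in the fit. The exceptions were Trim30d (adjusted p 0.0508 to 0.253 where lost), Phf11d (0.0702 and 0.0819) and Dtx3l (0.047 without control replicate 1); the cause was not tested. A replicate block gave 1648 genes higher and 1883 lower than control and changed no count by over 1.5 times. With 1 library left out, calls against control ranged from 1326 to 1614 higher and 1550 to 1912 lower, calls against TGFβ from 244 to 439 higher and 379 to 629 lower, genes outside the TGFβ response from 86 to 184 higher and 101 to 184 lower, lowered genes not settled from 41 to 95, at control level from 2 to 5 and past control from 0 to 1. Raised genes, likewise with 1 library left out, stayed in 239 to 255 cases and passed control in 19 to 28. Those at control level ranged from 9 to 15 and those not settled from 38 to 70. Listed interferon genes lower than control ranged from 25 to 32. A single lowered gene passed control with only 12 libraries in the fit (1 gene, S100g, log2 change 0.63) or with the third NAM and the first TGFβ+NAM library left out (1 gene). Choosing the genes in TGFβ with nicotinamide (NAM) against NAM left 84 raised and 109 lowered genes not settled. The number at control level follows its margin, with 1 raised and 0 lowered genes at a narrower margin and 22 and 8 at 2-fold. With no minimum fold change, 856 raised genes stayed, 84 lay at control level, 46 passed and 321 were not settled, against 1005, 49, 1 and 257 lowered genes. Other scalings moved the median of all genes to −0.0121 at most in size. The 3 libraries a group limit precision, SAM treatment and library preparation cannot be told apart, and low genes such as Inmt and Spib rest on few reads.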

Other observations

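Some genes lay beyond TGFβ, SAM and control in TGFβ+SAM, a set looked for after the values were seen and not compared with the NAM groups. In edgeR's test 176 genes (1.31% of those tested) were called lower than each of the 3, and 128 (0.95%) were called higher than each. Without SAM replicates 2 and 3 these counts were 104 and 92. The lower set held 8 of the 57 tested interferon genes (14%), 5 of 23 glycolysis and hypoxia genes (21.7%), 4 of 18 tubular injury genes (22.2%) and 2 of 22 NAD metabolism genes (9.09%). The higher set held 4 of 30 collagen and matrix genes (13.3%) and 2 of 26 p53 targets (7.69%). These lists were picked after their counts were seen, and the counts describe them. The genes given next were chosen in the same way. Malat1 had 9782, 9751 and 10772 CPM in TGFβ+SAM, 15840, 14400 and 17419 CPM in TGFβ, 18050, 18768 and 18797 CPM in SAM and 18728, 20032 and 20401 CPM in control. Jag1 had 370.1, 406 and 351 CPM in TGFβ+SAM, 204, 219 and 235 CPM in TGFβ, 192, 157 and 162 CPM in SAM and 143, 158 and 157 CPM in control, and Egfr, the receptor of the growth factor in the medium, had 169.9, 174 and 146 CPM in TGFβ+SAM, 115, 114 and 114 CPM in TGFβ, 121, 107 and 117 CPM in SAM and 89.4, 74.1 and 85.5 CPM in control.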
